A study of Bos taurus with 24 samples.

Results

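Genes behind the acid interior of the lysosome and the proteases that work in it were followed here at the RNA level, 33 of the 11937 in the count table. They are the genes whose symbol starts with ATP6V or ATP6AP, those named CTS plus a single letter, and LAMP1, LAMP2, LAMP3, TFEB and TFE3. The 33 genes carry 32 symbols, since ATP6V1H names both the full gene on chromosome 14 and a short gene of 1441 bases on chromosome 13. They were 10 genes of the V1 sector of the pump, 6 of the V0 sector, 3 accessory proteins of the pump, 10 cathepsins, 2 lysosomal membrane glycoproteins and 2 transcription factors. LAMP3 and CTSL are not among the genes listed, and 13 of 45 matching symbols in the RefSeq gene table (ARS-UCD2.0) were not analysed here.

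The vacuolar ATPase is a rotary pump that uses ATP to move protons into lysosomes and other compartments. Its V1 sector lies in the cytosol and splits ATP, its V0 sector lies in the membrane and carries the protons, and the sectors can come apart and rejoin. The acid that it makes activates the cathepsins, proteases that digest what endocytosis and autophagy deliver, and some of which are also secreted and cut matrix. LAMP1 and LAMP2 are the abundant glycoproteins that line the lysosomal membrane. TFEB and TFE3 are related transcription factors that switch on lysosomal genes when the kinase mTORC1, which is held at the lysosome, is inactive. In muscle, lysosomes take part in protein turnover and in the remodelling of myoblasts as they differentiate.

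The study cultured satellite cells, the stem cells of muscle fibres, from the longissimus dorsi of wild-type cattle, as a mix of 3 cell lines at passage 3. They grew alone (monoculture) or in co-culture plates whose 0.4 µm pores separate them from fibroblasts at passage 10 (coculture), all plated at 8000 cells/cm2. Cells proliferated for 5 days in high glucose DMEM with 20% fetal bovine serum and then differentiated in the same base with 10% horse serum. RNA was sequenced from 4 libraries in each of 6 groups: monoculture and coculture in proliferation, and at 24 h and 72 h after the change of serum. The labels do not say that the 4 are separate cultures, so the p-values speak of spread among these samples alone, and that spread may be technical. They also do not say whether the monoculture wells held an empty insert.

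Library totals ran from 11.5 to 34.96 M counts, and every member had at least 7 counts in every library. All libraries were sequenced in lane 6 except 2 of the 4 coculture libraries at 24 h and all 4 at 72 h, which were in lane 7. The lane 7 libraries at 72 h stand against lane 6 monoculture libraries, so a term for lane rests on the coculture libraries at 24 h, 2 in each lane; with that term 20 members were lower and 1 higher at 72 h. The labels also carry a code with no stated meaning, which is 1 for monoculture at 24 h and 72 h and 2 for every other group. At 24 h and 72 h this code cannot be told apart from the culture, and its part in the results was not tested. Ribosomal RNA genes drew 1.76 to 4.07% of the counts of 4 libraries (replicate 2 of coculture at 24 h, replicate 1 of coculture at 72 h, and replicates 3 and 4 of monoculture at 72 h) and at most 1.40% elsewhere. Of 12 markers of satellite cells and myoblasts, 6 were listed (PAX3, ITGA7, DES, MET, NCAM1 and SDC4) and PAX7, MYF5, MYOD1, MYOG, CDH15 and CHODL were not. Levels are given as CPM, counts scaled to library size adjusted by TMM factors, which correct for RNA composition. In proliferation the 6 summed to 207 to 213 CPM in monoculture and 249 to 268 in coculture. They summed to 336 to 352 against 259 to 288 CPM at 24 h, and to 439 to 475 against 277 to 288 at 72 h. ITGA7 and DES made up most of the gap at 72 h: ITGA7 stood at a mean of 155 CPM in monoculture and 38.5 in coculture, and DES at 148 and 86.1. Of the 6, 3 were called lower and 2 higher at 72 h. The 9 listed of 12 fibroblast markers, collagens included, summed to 33577 to 36211 CPM in monoculture against 40735 to 41971 in coculture in proliferation. They overlapped at 24 h and stood at 87571 to 98739 against 83152 to 85179 CPM at 72 h. Most of that sum is COL1A1 (a mean of 61551 and 53140 CPM at 72 h) and COL3A1 (27467 and 28998). Of the 9, 3 were called higher and 2 lower at 72 h, with PDGFRA at a mean of 46.3 CPM in monoculture and 121 in coculture. The 6 listed of 8 smooth muscle and pericyte markers summed to 12414 to 12502 CPM in monoculture against 14799 to 16230 in coculture in proliferation. Their sum was 14029 to 16167 against 12850 to 13804 CPM at 24 h, and 10413 to 12418 against 6209 to 7304 at 72 h. Most of that sum is ACTA2 (a mean of 9823 and 5772 CPM at 72 h). Of the 6, 4 were called higher and 2 lower in proliferation, and all 6 were called lower at 72 h. Only CD68 and FCER1G of 14 leukocyte and macrophage markers were listed, at a sum of 0.959 to 3.26 CPM, and of 7 osteoclast markers only NFATC1. The part of the cell makeup in the results was not tested. In bulk RNA, fewer cells of a type and less RNA per cell cannot be told apart.

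Members lower in coculture outnumbered those higher at each time, and by more at 24 h and 72 h after the change of serum. At 24 h, 19 of the 33 members were lower in coculture and 0 were higher, a share of 57.6% against 12.2% of all genes that were lower and 11.5% that were higher. At 72 h, 23 members were lower, or 69.7% against 25.4% of all genes, and 2 were higher, against 25.1%. In proliferation the members parted, with 13 lower and 8 higher, against 28.7% of all genes lower and 30.3% higher. Their sum was already lower then, at 5026 to 5141 CPM in coculture against 5504 to 5651 in monoculture. The means of the sum were 5106 CPM in coculture and 5600 in monoculture. CTSK alone stood at a mean of 1221 CPM in coculture and 1727 in monoculture, a gap as large as that of the sum. The lower sum thus does not show a fall of the other members as a set. Called means an adjusted p under 0.05 in edgeR's quasi-likelihood test, with p-values adjusted over all 11937 genes. The changes were moderate in size. The median log2 fold change over the members was -0.03 in proliferation, -0.21 at 24 h and -0.30 at 72 h, where the median over all genes was 0.0040, -0.0027 and -0.0014. With library sizes alone as the scaling, in place of the TMM factors that correct for RNA composition, 3 members were higher in proliferation and 15 lower, and at 72 h 4 were higher and 15 lower. That scaling moved the median of all genes to 0.13 at 72 h and the members' median to -0.17.

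**Figure D1:**
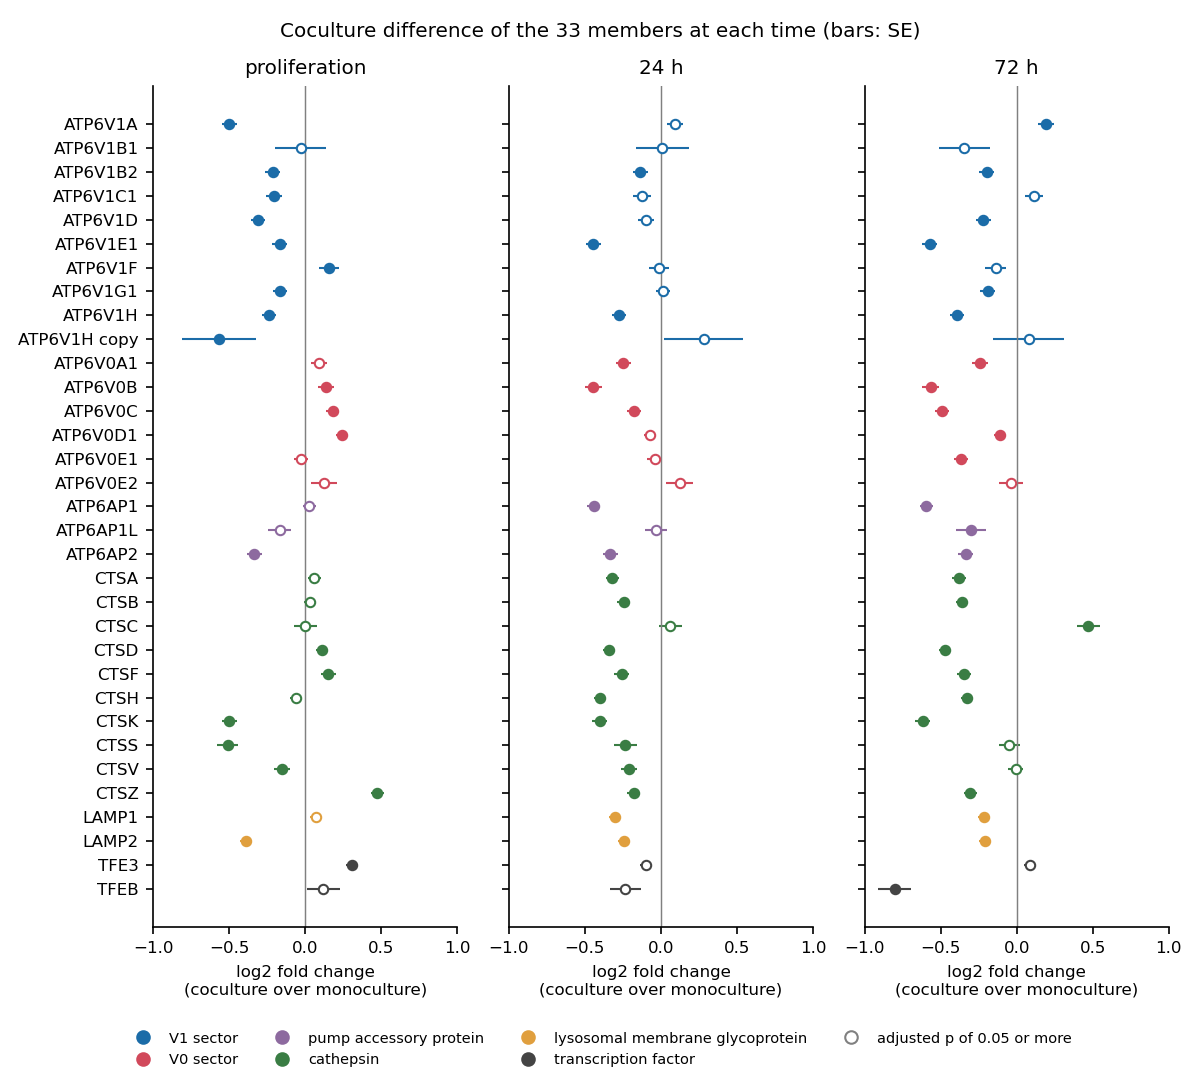
Log2 fold change of coculture over monoculture (x axis) for each of the 33 members (y axis, coloured by role) in proliferation, at 24 h and at 72 h. Bars are standard errors, and open circles are members with an adjusted p of 0.05 or more. Most V1 genes lie left of 0 in proliferation, and 23 of the 33 members are called lower at 72 h.

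Counting over times, 6 members were lower in coculture in all 3 comparisons: ATP6V1B2, ATP6V1E1, ATP6V1H, ATP6AP2, CTSK and LAMP2. A further 6, ATP6V0A1, ATP6AP1, CTSA, CTSB, CTSH and LAMP1, were lower at 24 h and 72 h and not called in proliferation. The 5 members ATP6V0B, ATP6V0C, CTSD, CTSF and CTSZ were higher in proliferation and lower at both later times. ATP6V1B1, an isoform of the B subunit best known from kidney, and ATP6V0E2 were called at no time. The share of all genes with these patterns over times was not counted, so the patterns cannot be called particular to the members. The 3 comparisons share no libraries. Scaling by library size alone kept the rise in proliferation for CTSZ and ended it for the other 4.

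In proliferation V1 genes were mostly lower in coculture. Of its 10 genes 8 were lower and ATP6V1F was higher, while in the V0 sector 3 of 6 were higher and 0 were lower (1 and 0 with library sizes alone). Of all genes, 28.7% were lower and 30.3% higher. The lower V1 genes were, after ATP6V1A, ATP6V1D (-0.31 ± 0.048, SE), which forms the rotor shaft, ATP6V1H (-0.24), ATP6V1B2 (-0.22), which is the B subunit of the ATP-splitting ring, and ATP6V1C1 (-0.21). ATP6V1G1 (-0.17) and ATP6V1E1 (-0.17), which build the outer stalks, also fell. The chromosome 13 gene fell by 0.57 ± 0.243 (edgeR adjusted p = 0.0441), at 0.571 to 1.62 CPM over those 8 libraries. Its reads may be split with those of the full ATP6V1H gene, its libraries overlapped, and its call ended in 8 of 17 alternative analyses, DESeq2 among them. ATP6V1F, a part of the rotor, rose by 0.16 ± 0.0661 (adjusted p = 0.0413), and lost the call with library sizes alone, within lane 6 and when any of monoculture replicates 3 and 4 or coculture replicates 1 to 3 was left out.

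ATP6V1A encodes the catalytic A subunit. In proliferation it was read at 99.4, 104, 104 and 101 CPM in the monoculture libraries and at 74.3, 68.1, 77.3 and 70.5 in coculture. At 24 h the values were 53.2, 59.4, 52.8 and 58.4 CPM in monoculture and 59.8, 60.6, 58.9 and 59.8 in coculture. By 72 h monoculture held 50.7, 53.6, 60.8 and 56.7 and coculture 62.1, 60.5, 68.2 and 62.1 CPM. Every coculture library lay under every monoculture library in proliferation, and the groups overlapped at the other times. The log2 fold change was -0.50 ± 0.0504 in proliferation (edgeR adjusted p = 1.7e-09), 0.095 ± 0.0523 at 24 h (adjusted p = 0.196) and 0.19 ± 0.0526 at 72 h (adjusted p = 0.00305). The rise at 72 h was not called with lane as a covariate. The difference moved by 0.69 ± 0.0729 between proliferation and 72 h (adjusted p = 2.88e-09), the largest such move upward among the members called.

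ATP6V1E1, the E subunit of the stalks that hold the motor still, was lower in coculture at each time. Monoculture libraries in proliferation held 142, 140.0, 132 and 131 CPM, and coculture libraries 117, 123, 124 and 121. At 24 h they held 115, 104, 105 and 98.2 CPM in monoculture and 77.5, 78.2, 76.7 and 78.4 in coculture. At 72 h they held 133, 127, 151 and 138 CPM in monoculture and 92.8, 89.6, 91.98 and 94.1 in coculture. Every coculture library was below every monoculture library at each time, with log2 fold changes of -0.17, -0.45 ± 0.0484 and -0.57 ± 0.048 (adjusted p = 2.81e-11 at 72 h).

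ATP6V1H, a regulatory subunit that is needed for activity and stops the free V1 sector from wasting ATP, was lower throughout as well. It stood at 61.7, 70.01, 65.7 and 70.5 CPM in monoculture and 55.3, 59.2, 56.6 and 55.7 in coculture in proliferation. The 24 h libraries gave 53.2, 52.7, 51.8 and 51.3 CPM without fibroblasts and 44.97, 39.5, 44.1 and 43.8 with them. The 72 h libraries gave 67.6, 64.4, 70.2 and 69.6 CPM in monoculture and 52.3, 52.3, 49.1 and 52.8 in coculture. The groups did not overlap at any time, and the log2 differences were -0.24, -0.28 and -0.39 ± 0.0462. At 24 h the V1 calls were ATP6V1E1, ATP6V1H and ATP6V1B2 (-0.14, adjusted p = 0.043), whose call ended in 12 of the 18 alternative analyses, leaving out any of 7 of the 8 libraries among them. At 72 h 5 of 10 V1 genes were lower, against 25.4% of all genes. Besides ATP6V1E1 and ATP6V1H these were ATP6V1D (-0.22), ATP6V1B2 (-0.20) and ATP6V1G1 (-0.19). With library sizes alone the count was 2 lower and 2 higher, and with lane as a covariate 3 and 0.

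In the V0 sector, genes that were higher in coculture in proliferation were lower in it at 72 h. ATP6V0B and ATP6V0C encode proteolipids of the ring that turns with each proton, and ATP6V0D1 the subunit that joins that ring to the V1 rotor; these were the 3 genes higher in proliferation. At 24 h ATP6V0B, ATP6V0C (-0.18 ± 0.0459) and ATP6V0A1 were lower. By 72 h 5 of 6 were lower, against 25.4% of all genes. ATP6V0C stood at -0.49 ± 0.0458 and ATP6V0E1, a small subunit at the rim, at -0.37 ± 0.0465, whereas ATP6V0E2 stood at -0.036 (edgeR adjusted p = 0.731).

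ATP6V0B had the largest such change of the sector. Its proliferation levels were 90.1, 84.5, 88.7 and 86.4 CPM in monoculture against 96.9, 99.1, 92.8 and 94.7 in coculture. At 24 h the libraries held 95.5, 89.7, 81.3 and 96.8 CPM in monoculture and 64.9, 61.5, 71.03 and 69.1 in coculture. At 72 h the values were 94.5, 92.2, 111 and 104 CPM in monoculture and 70.8, 65.2, 66.9 and 68.5 in coculture. Coculture libraries thus lay above all monoculture libraries at first and below all of them later, with log2 differences of 0.14 ± 0.0551 (edgeR adjusted p = 0.0353), -0.45 ± 0.0559 and -0.56 ± 0.056 (adjusted p = 9.42e-10). The change of the difference from proliferation to 72 h was -0.70 ± 0.0786 (adjusted p = 9.37e-09). The small rise in proliferation was not called with library sizes alone, within lane 6 or without any of monoculture replicates 2 and 4 or coculture replicates 1 and 2.

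ATP6V0D1 rose by 0.24 ± 0.0413 in proliferation, from 146, 143, 156 and 160.5 CPM to 178, 182, 173 and 183 (adjusted p = 1.08e-05). After 24 h of differentiation it was at 124, 133, 132 and 134 CPM in monoculture and 131, 118, 120.2 and 129 in coculture, which overlap. At 72 h the libraries gave 187, 185, 181 and 184 CPM in monoculture against 174, 168, 168 and 173 in coculture, a difference of -0.11 ± 0.0413 (adjusted p = 0.0286). That last call is weak: with library sizes alone the value was 0.022, and the call ended with lane as a covariate and without any of monoculture replicates 1 and 2 or coculture replicates 2 and 3.

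ATP6V0A1 is an isoform of the large subunit that forms the proton path and helps to place the pump. Proliferating monoculture held 53.1, 48.97, 49.96 and 52.7 CPM and coculture 58.04, 53.5, 54.5 and 51.9, which overlap (log2 0.09, adjusted p = 0.131). At 24 h it stood at 60.9, 65.7, 61.3 and 65.2 CPM in monoculture against 48.9, 53.9, 55.4 and 54.9 in coculture. At 72 h it stood at 60.8, 67.5, 55.8 and 62.4 CPM in monoculture against 53.5, 51.2, 51.9 and 51.9 in coculture. Coculture was lower without overlap at both times, with log2 fold changes of -0.25 ± 0.0502 and -0.24 ± 0.0508, and the second call ended with library sizes alone.

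The accessory proteins ATP6AP1 and ATP6AP2 help the pump to assemble and reach its compartments; ATP6AP2 is also known as the prorenin receptor. ATP6AP1 was not called in proliferation, at 88.1, 88.7, 95.4 and 94.6 CPM in monoculture and 90.04, 92.3, 94.8 and 96.1 in coculture (log2 0.024, adjusted p = 0.647). After 24 h it held 94.1, 101, 95.9 and 97.8 CPM in monoculture and 72.1, 71.6, 70.6 and 71.7 in coculture. After 72 h it held 115, 108, 124 and 119 CPM in monoculture and 80.2, 73.4, 77.1 and 77.5 in coculture. From proliferation to 24 h it fell in coculture (-0.38 ± 0.0431) and stood at 0.083 ± 0.0426 in monoculture (adjusted p = 0.0823), and the log2 difference reached -0.44 ± 0.043 and then -0.60 ± 0.0429 (adjusted p = 1.1e-12).

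ATP6AP2 was lower in coculture at each time. In proliferation the libraries ran 201, 208, 198 and 181 CPM in monoculture and 154, 159, 152 and 159 in coculture. The values were 154, 146, 137 and 153 CPM in monoculture and 120.2, 111, 118 and 118 in coculture at 24 h. They were 148, 148, 159 and 169.5 CPM in monoculture and 125, 121, 120.2 and 127 in coculture at 72 h. No libraries overlapped, and the log2 fold changes were -0.34 ± 0.0478, -0.33 ± 0.0483 and -0.34 ± 0.0483. The change of the difference from proliferation to 72 h was -0.000299 ± 0.0671 (adjusted p = 0.998). ATP6AP1L, a gene related to ATP6AP1, was called only at 72 h (-0.30 ± 0.0981, adjusted p = 0.0113), a call that ended with library sizes alone, in the fit of the compared groups only and without monoculture 72 h replicate 1.

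**Figure D2:**
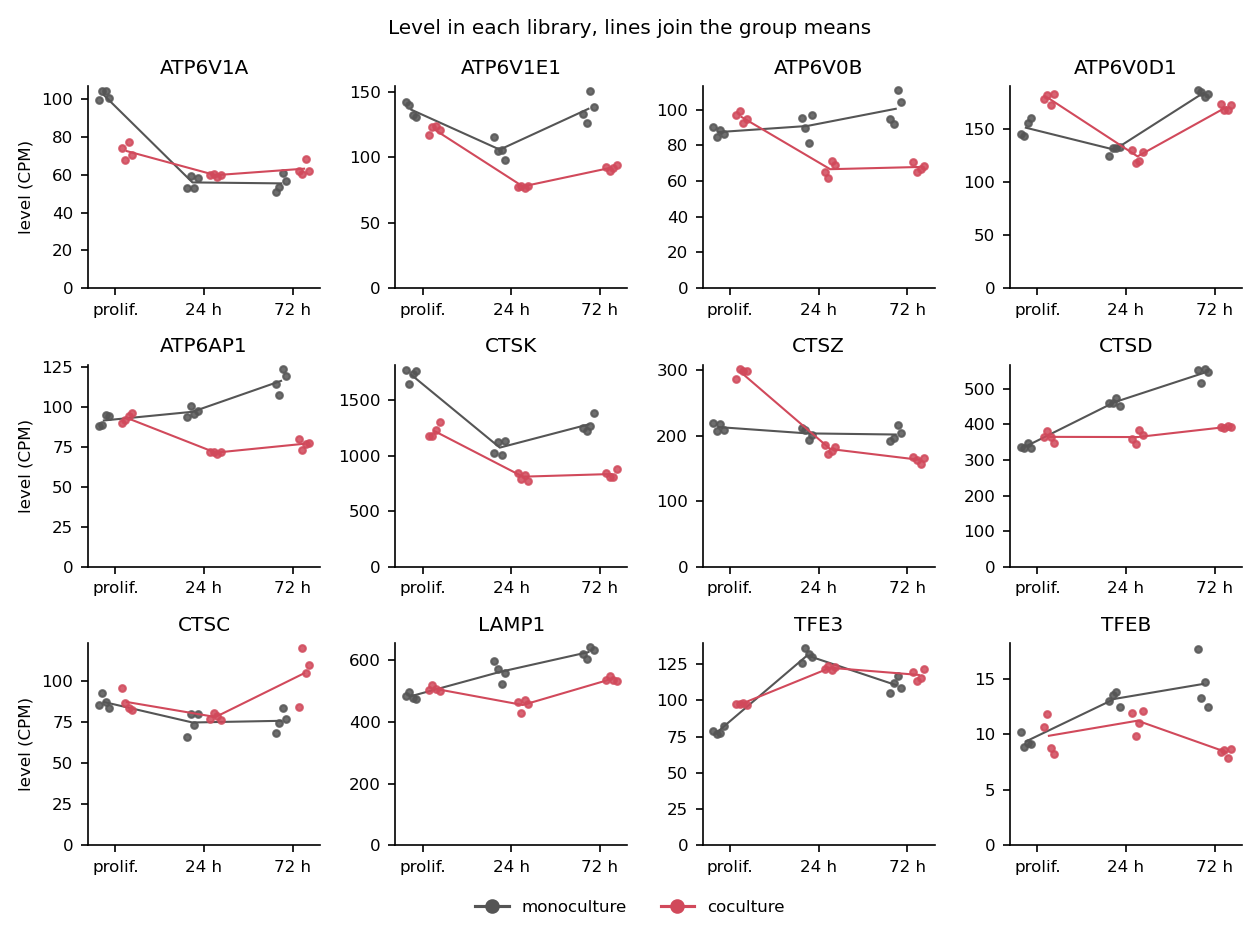
Level in CPM (y axis, from 0) of 12 members in each library of monoculture (grey) and coculture (red) in proliferation, at 24 h and at 72 h (x axis); lines join the means of 4 libraries. ATP6V1A and CTSK are lower in coculture in proliferation, CTSZ is higher there and lower later, and TFEB is apart at 72 h.

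Among the cathepsins, proliferating cells in coculture held less CTSK, CTSS and CTSV and more CTSZ, CTSF and CTSD. That is 30% each way, near the shares of all genes (28.7% lower and 30.3% higher). At 24 h 9 of the 10 were lower, against 12.2% of all genes, CTSC being the exception. Of all genes, 25.4% were lower and 25.1% higher at 72 h. At 72 h 7 were lower, CTSC was higher, and CTSS and CTSV were at -0.049 and -0.0075 (adjusted p = 0.573 and 0.915). The count was also 7 lower and 1 higher with library sizes alone, with lane as a covariate and without the 4 libraries rich in ribosomal RNA.

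CTSK, cathepsin K, is the cysteine protease that cuts native collagen and is best known from osteoclasts, though fibroblasts also make it. In proliferation its libraries read 1768, 1639.9, 1737 and 1763 CPM in monoculture and 1175, 1177, 1231 and 1302 in coculture. At 24 h they read 1023, 1124, 1006 and 1132 CPM in monoculture and 847, 792, 825 and 774 in coculture. At 72 h they read 1248, 1224, 1264 and 1383 CPM in monoculture and 844, 806, 808 and 876 in coculture. All coculture libraries were below all monoculture libraries at each time, with log2 fold changes of -0.50 ± 0.0482, -0.40 ± 0.0482 and -0.62 ± 0.0483 (edgeR adjusted p = 7.39e-10, 1.98e-07 and 6.15e-12).

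CTSS, cathepsin S, is the member nearest to CTSK, 15.2 kb away on chromosome 3 in the files' coordinates, and is the protease that antigen-presenting cells use to process the invariant chain. It was read at 25.8, 26.9, 26.3 and 24.02 CPM in proliferating monoculture and 17.1, 18.01, 18.7 and 18.5 in coculture. At 24 h it was read at 16.1, 17.6, 14.005 and 18.9 CPM in monoculture and 13.9, 13.4, 15.3 and 13.999 in coculture. The 72 h values were 26.98, 23.6, 24.7 and 27.6 CPM in monoculture and 23.4, 24.9, 25.6 and 25.3 in coculture. The libraries parted in proliferation (-0.51 ± 0.0693, adjusted p = 3.04e-07) and overlapped at both later times, at -0.24 ± 0.0753 (adjusted p = 0.021) and -0.049. Within lane 6, in the fit of the compared groups only, without the libraries rich in ribosomal RNA and without any of monoculture replicates 2 and 4 and coculture replicates 2 and 4, the 24 h call ended. CTSS differed less in coculture at 72 h than in proliferation by 0.46 ± 0.0971 (adjusted p = 0.000146).

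CTSZ, a carboxypeptidase also called cathepsin X, had the largest rise of any member in proliferation, 0.47 ± 0.0409 or 1.39-fold (adjusted p = 9.79e-11). Monoculture was at 219, 207, 219 and 209 CPM and coculture at 287, 302, 298 and 298. Differentiating for 24 h they were at 211, 209, 193 and 201 CPM in monoculture and 186, 172, 177 and 184 in coculture. At 72 h they were at 192, 196, 216 and 204 CPM in monoculture and 167, 163, 157 and 167 in coculture. The cultures never overlapped, but coculture was the higher in proliferation and the lower afterwards, at -0.18 ± 0.0411 and -0.31 ± 0.0413. The difference moved by -0.65 ± 0.058 from proliferation to 24 h (adjusted p = 7.34e-10). Over that step coculture fell by 0.72 and monoculture stood at -0.066 (adjusted p = 0.151).

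CTSD, the aspartic protease cathepsin D, and CTSB, a cysteine protease, are the broad digesting enzymes of the lysosome. CTSD in proliferation was at 337, 335, 348 and 333 CPM in monoculture and 366, 381, 366 and 348 in coculture, a rise of 0.11 ± 0.0383 (adjusted p = 0.0145) with overlapping libraries that was not called with library sizes alone, within the lane 6 libraries or without coculture replicate 2. At 24 h it stood at 461, 461, 475 and 453 CPM in monoculture against 359, 345, 385 and 371 in coculture. At 72 h it stood at 554, 518, 557 and 549 CPM in monoculture against 392, 389.9, 396 and 394 in coculture. CTSD rose in monoculture from proliferation to 24 h (0.45 ± 0.0383) and stood at -0.0024 in coculture (adjusted p = 0.969). The later log2 differences were -0.34 ± 0.0383 and -0.47 ± 0.0383 (adjusted p = 5.96e-08 and 1.5e-11).

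CTSB gave 495, 461, 487 and 494 CPM in proliferating monoculture and 487, 498, 494 and 497 in coculture (0.029 ± 0.0407, adjusted p = 0.56). Its 24 h libraries gave 417, 438, 416 and 441 CPM in monoculture and 376, 344, 370.2 and 353 in coculture. Its 72 h libraries gave 495, 475, 504 and 527 CPM in monoculture and 394, 376, 377 and 410.3 in coculture. The cultures overlapped in proliferation only, and the log2 fold change was -0.25 ± 0.0409 and then -0.36 ± 0.0409.

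CTSC, the dipeptidyl peptidase that activates serine proteases of immune cells, was the only cathepsin higher in coculture at 72 h. It was at 85.01, 92.6, 87.2 and 83.5 CPM in monoculture and 95.4, 86.7, 83.6 and 82.4 in coculture in proliferation. The 24 h libraries were at 65.8, 80.002, 72.8 and 79.8 CPM in monoculture and 76.7, 80.6, 78.4 and 75.98 in coculture. The 72 h libraries were at 68.1, 74.3, 83.6 and 76.5 CPM in monoculture and 83.9, 120.0, 105 and 109 in coculture. The last groups do not overlap, though the coculture libraries are spread (SD 15.2 CPM, against 6.39 in monoculture), and the difference was 0.47 ± 0.0753 (adjusted p = 5.2e-06).

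Of the remaining cathepsins, CTSH, an aminopeptidase, had a log2 fold change of -0.40 ± 0.0402 at 24 h and -0.33 ± 0.0399 at 72 h. CTSA, the carboxypeptidase that protects lysosomal galactosidase and sialidase, had log2 fold changes of -0.32 ± 0.0435 and -0.38 ± 0.0437, and CTSF ones of -0.26 ± 0.0491 and -0.35 ± 0.0478. CTSV had a log2 fold change of -0.15 ± 0.0522 in proliferation and -0.21 ± 0.0541 at 24 h, and the 24 h call ended with lane as a covariate and within lane 6. RefSeq lists CTSL among the synonyms of the bovine gene CTSV and also a separate CTSL gene. These are close relatives, so the authors' counting could have split reads between them and the value is uncertain.

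Both membrane glycoproteins were lower in coculture at 24 h and 72 h. LAMP1 was at 485, 499, 479 and 475 CPM in monoculture and 505, 519, 508 and 502 in coculture in proliferation, where the libraries do not overlap but the difference missed the threshold (0.071 ± 0.0397, adjusted p = 0.126). The 24 h libraries were at 597, 572, 523 and 559 CPM in monoculture and 465, 428, 471 and 457 in coculture. The 72 h libraries were at 622, 606, 645 and 635 CPM in monoculture and 537, 550.0, 538 and 534 in coculture. Coculture lay lower without overlap at both times (-0.31 ± 0.0397 and -0.22 ± 0.0397).

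LAMP2, whose A form takes proteins into the lysosome in chaperone-mediated autophagy, was lower from the start, at 247, 251, 247 and 241 CPM in monoculture against 183, 186, 189.9 and 194 in coculture. The 24 h values were 184, 185, 173 and 186 CPM in monoculture against 158, 153, 154 and 153 in coculture. The 72 h values were 179.9, 188, 198 and 197 CPM in monoculture against 170.0, 157, 169.7 and 162 in coculture. No time showed overlap, and the difference narrowed from -0.39 ± 0.0386 to -0.24 ± 0.0389 and -0.21 ± 0.0389, a change of 0.18 ± 0.0547 from proliferation to 72 h (adjusted p = 0.00529). With library sizes alone neither glycoprotein was called at 72 h.

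The transcription factors TFEB and TFE3 went different ways. TFEB had the largest fall of any member at 72 h: 17.7, 13.3, 14.7 and 12.5 CPM in monoculture and 8.41, 8.64, 7.86 and 8.72 in coculture, a log2 fold change of -0.80 ± 0.108 (edgeR adjusted p = 2.96e-07). In proliferation it was at 10.2, 8.83, 9.23 and 9.17 CPM in monoculture and 10.7, 11.9, 8.73 and 8.23 in coculture, which overlap (0.12 ± 0.109, adjusted p = 0.362). The 24 h libraries were at 13.01, 13.5, 13.8 and 12.5 CPM in monoculture and 11.96, 9.85, 10.999 and 12.2 in coculture, where the libraries part but the test missed the threshold (-0.23 ± 0.103, adjusted p = 0.0993). The difference grew by -0.57 ± 0.15 between 24 h and 72 h (adjusted p = 0.00582).

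TFE3 was called higher in coculture in proliferation, at 97.7, 97.4, 98.5 and 97.1 CPM against 78.7, 76.99, 77.3 and 82.6 in monoculture (0.31 ± 0.039, adjusted p = 1.02e-07). At 24 h it was at 122, 124, 121 and 123 CPM in coculture and 126, 137, 132 and 129.8 in monoculture, which part by -0.097 ± 0.0381 (adjusted p = 0.0623). The 72 h libraries were at 119, 114, 116 and 122 CPM in coculture and 105, 112, 117 and 109 in monoculture, which overlap (0.089 ± 0.0385, adjusted p = 0.0551). These later values sat near the threshold: 4 of 18 alternative analyses called the first and 6 of 17 the second.

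The change of the coculture difference between times was tested directly. From proliferation to 24 h it moved down for 14 members and up for 6, against 26.2% of all genes down and 24.3% up. From proliferation to 72 h it moved down for 18 members and up for 5, against 31% and 31.3%. From 24 h to 72 h it moved down for 5 and up for 4, against 11.7% and 12%. Those that moved up from proliferation to 72 h were ATP6V1A, ATP6V1C1 (0.32), CTSC, CTSS and LAMP2. With library sizes alone the count for proliferation to 72 h was 10 down and 11 up. That scaling raised the median of all genes in this comparison to 0.21 and left the members at -0.065, against 0.013 and -0.27 with TMM factors.

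Over time within each culture, more members fell than rose in the first 24 h, and more rose than fell from 24 h to 72 h. In monoculture 17 members fell from proliferation to 24 h and 10 rose, against 34.2% and 34.3% of all genes. In coculture 22 fell and 3 rose, against 22.2% and 21%. From 24 h to 72 h, 22 rose and 2 fell in monoculture, against 27.3% and 26.6%. In coculture 20 rose and 3 fell, against 24.4% and 23.8%, or 13 and 3 without the libraries rich in ribosomal RNA. The steps into and out of 24 h share the 24 h libraries.

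**Figure D3:**
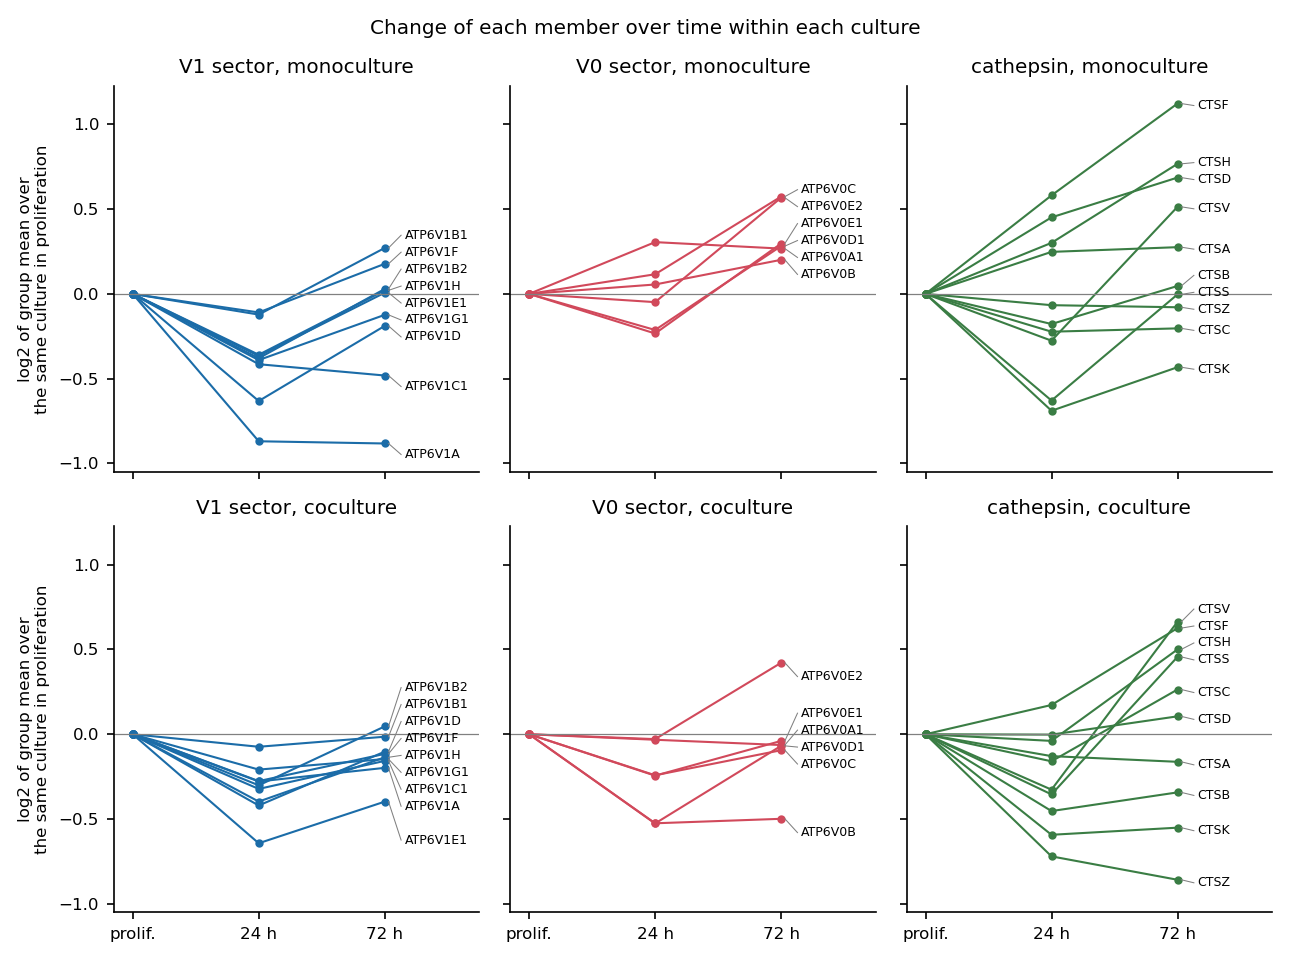
Log2 ratio of each group mean to the same culture in proliferation (y axis) at proliferation, 24 h and 72 h (x axis), for 9 V1 genes, 6 V0 genes and 10 cathepsins in monoculture (top) and coculture (bottom). The V1 genes lie below their starting level at 24 h in both cultures, and in monoculture the V0 genes end above their starting level while in coculture most do not.

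The V1 sector fell in the first 24 h in both cultures, in 8 of 10 genes each. Of all genes, 34.2% fell in monoculture and 22.2% in coculture. ATP6V1A fell most in monoculture (-0.87 ± 0.0512) and ATP6V1E1 most in coculture (-0.64 ± 0.0483). In the V0 sector 2 genes rose and 2 fell in monoculture, with ATP6V0A1 at 0.31 ± 0.0503 and ATP6V0E1 at -0.24. That is 33.3% each way, near the 34.3% of all genes that rose and the 34.2% that fell. In coculture 4 V0 genes fell, with ATP6V0B at -0.53 and ATP6V0D1 at -0.53. By 72 h 5 V0 genes had risen from 24 h in monoculture, ATP6V0E2 by 0.61 and ATP6V0E1 by 0.53 among them, and 4 in coculture, as ATP6V0D1 (0.46). Of all genes, 27.3% rose over that time in monoculture and 24.4% in coculture.

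Cathepsins took separate courses over time. In monoculture CTSF (0.58 ± 0.0499), CTSD (0.45 ± 0.0383), CTSH (0.30 ± 0.0401) and CTSA (0.25 ± 0.0434) rose in the first 24 h, and CTSK (-0.69 ± 0.0483), CTSS (-0.63 ± 0.0701), CTSV, CTSC and CTSB fell. These are 40% rising and 50% falling, against 34.3% and 34.2% of all genes. In coculture CTSF alone rose (0.17 ± 0.05), a call that ended with library sizes alone, with lane as a covariate and within lane 6, and CTSZ (-0.72 ± 0.0411) and CTSK (-0.59 ± 0.0483) fell most. From 24 h to 72 h the largest rises of a cathepsin were those of CTSV, by 0.79 ± 0.0519 in monoculture and 0.99 ± 0.0523 in coculture, and CTSS, by 0.63 ± 0.071 and 0.81 ± 0.0721. CTSC rose in that step by 0.42 ± 0.0747 in coculture and stood at 0.016 in monoculture (adjusted p = 0.876). Scaling by library sizes alone moved the median of all genes by -0.19 in the first step in monoculture, where it gave 6 rises and 22 falls, and by -0.13 in the second, where it gave 15 and 6.

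Of the transcription factors, TFE3 rose in both cultures at first. In the first 24 h TFE3 rose by 0.73 ± 0.0388 in monoculture and 0.33 ± 0.0385 in coculture, and TFEB by 0.50 ± 0.106 in monoculture (coculture 0.15 ± 0.106, adjusted p = 0.262). From 24 h to 72 h TFEB fell by 0.42 ± 0.11 in coculture and TFE3 fell by 0.25 ± 0.0384 in monoculture. ATP6AP1L showed the largest change over time of any member between 24 h and 72 h, from 56.2 ± 2.07 to 15.8 ± 3.09 CPM in monoculture (SD, n = 4; log2 -1.82 ± 0.084) and from 54.9 ± 3.75 to 12.9 ± 0.753 in coculture (-2.09 ± 0.0856).

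Other genes of the lysosome were read from lists that exclude the members. Their counts stand beside all genes tested, of which 28.7, 12.2 and 25.4% were lower and 30.3, 11.5 and 25.1% higher in proliferation, at 24 h and at 72 h. Of 53 genes of other lysosomal hydrolases and their activators, 30 were lower and 0 higher in coculture at 24 h, with a median of -0.17, and 29 were lower and 5 higher at 72 h, with a median of -0.22. In proliferation 20 were higher and 12 lower, or 16 and 16 with library sizes alone. SGSH, which degrades heparan sulfate, fell most at 24 h (-0.88), and the peptidase DPP7 fell most at 72 h (-0.63). Within lane 6 the 24 h count was 25 lower and 0 higher. At 72 h it was 26 and 0 with lane as a covariate and 19 and 12 with library sizes alone. Leaving out single libraries gave 26 to 31 lower and 2 to 9 higher at 72 h: 2 higher without monoculture replicate 1, 3 without any of monoculture replicates 2 and 4 and coculture replicates 3 and 4, and 9 without monoculture replicate 3.

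Lysosomal membrane and transport genes were lower in 17 of 33 cases at 24 h and in 18 at 72 h, and higher in 0 and 3 (5 at 72 h without coculture replicate 1). The lower count was 11 at 24 h within lane 6, and at 72 h it was 11 with lane as a covariate and 12 with library sizes alone. CLCN7, the chloride-proton exchanger of the lysosome, was at -0.43 and -0.52, the calcium channel MCOLN1 at -0.41 at 24 h and the tetraspanin CD63 at -0.50 at 72 h, while the amino acid exporters SLC36A1 (0.61) and SLC38A9 (0.48), the latter a sensor for mTORC1, rose at 72 h. Of 17 genes that sort enzymes to the lysosome, 3 were lower at 24 h (17.6%, against 12.2% of all genes) and 7 at 72 h (41.2% against 25.4%), GNPTG (-0.49), a subunit of the enzyme that makes the mannose 6-phosphate tag, most. That count at 72 h was 3 with lane as a covariate and 3 with library sizes alone. In proliferation 8 rose and 6 fell (47.1 and 35.3%, against 30.3 and 28.7%), with the retromer genes VPS26A (-0.62) and VPS29 (-0.42) among the falls.

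Of 10 genes listed for the pump's assembly, 6 were lower in proliferation and 2 higher (60 and 20%, against 28.7 and 30.3% of all genes). DMXL2 (-0.74) and DMXL1 (-0.63), large subunits of the RAVE-like complex that rejoins V1 and V0, fell, and ROGDI (0.52), another subunit of that complex, rose. At 24 h only NCOA7 was called in this list (0.45), a gene that was lower in proliferation (-0.28) and higher at 72 h (0.76). Without monoculture replicate 1 or 3 the 24 h calls in this list were 2. That is 10% higher at 24 h with 1 call, against 11.5% of all genes. At 72 h, 3 of the 10 were higher and 2 lower (30 and 20%, near the 25.1 and 25.4% of all genes). The lower count was 1 without any of monoculture replicate 3 and coculture replicates 1, 2 and 4. Of the cathepsin inhibitors, CST3, the secreted cystatin C, fell at 24 h (-0.29) and 72 h (-0.37), and CST6 fell in proliferation (-0.39) and at 72 h (-0.64). Of the 8 genes listed, 2 were lower at 24 h and 3 at 72 h, where 3 were higher, one of a pair of genes named CSTB most (1.05). That is 25% lower at 24 h and 37.5% each way at 72 h. The 24 h count was 1 without any of monoculture replicates 2 to 4 and coculture replicates 2 and 3, and without coculture replicate 3 the higher count at 72 h was 1.

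Of 27 genes that act on TFEB and TFE3 or are read as their output, 13 were lower and 7 higher in proliferation, 7 and 3 at 24 h, and 11 and 5 at 72 h (4 and 8 with library sizes alone, 4 and 3 with lane as a covariate). Those lower were 48.1, 25.9 and 40.7% of the list, and those higher 25.9, 11.1 and 18.5%. GPNMB, a glycoprotein commonly used as a readout of this factor family, fell at each time (-0.63, -0.82 and -0.67), as did RRAGD (-0.58, -0.85 and -0.60), a GTPase that recruits the factors to the lysosome. FLCN, which acts on that GTPase, fell at 24 h (-0.38) and 72 h (-0.47). MITF, a relative of TFEB, fell in proliferation (-0.58) and rose at 72 h (0.43). Autophagy genes were lower in 15, 8 and 15 of 42 cases (35.7, 19.05 and 35.7%, against 28.7, 12.2 and 25.4% of all genes) and higher in 13, 2 and 11 (30.95, 4.76 and 26.2%, against 30.3, 11.5 and 25.1%), with the receptor SQSTM1 (-0.71) lowest at 24 h. The 24 h count was 5 lower without monoculture replicate 1, and 1 higher without coculture replicate 2 or 4. At 72 h the median over these 42 was 0.043, against the sign of the counts, and the split was 5 lower and 18 higher with library sizes alone and 10 and 4 with lane as a covariate.

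**Figure D4:**
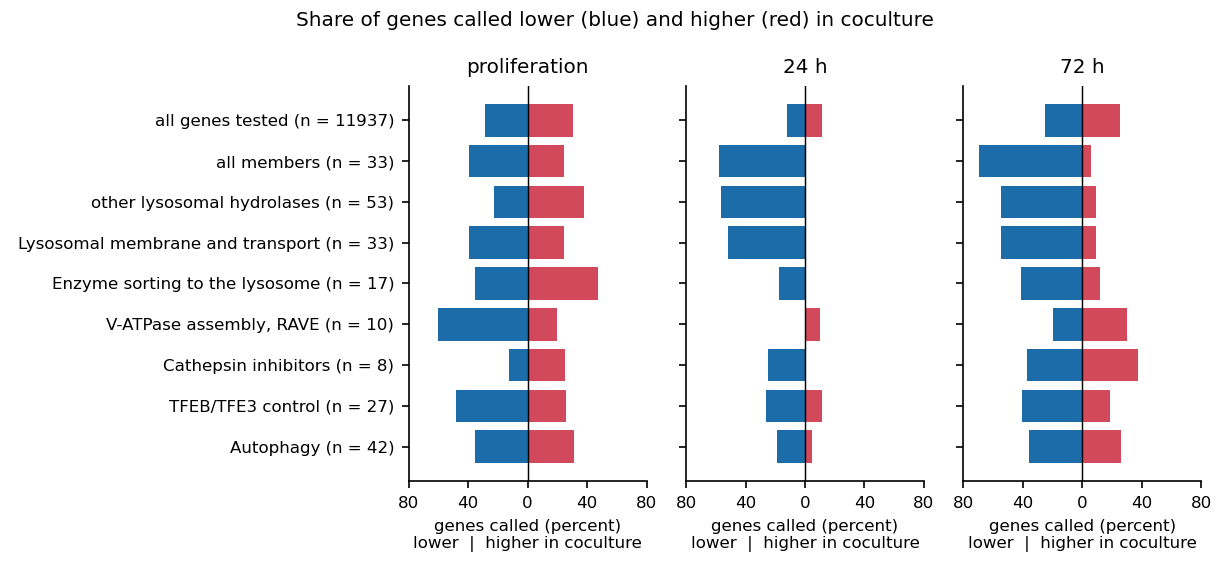
Percentage of genes called lower (blue, to the left) and higher (red, to the right) in coculture in proliferation, at 24 h and at 72 h, for all genes tested, the 33 members and 7 lists of related genes. At 24 h the members, the other hydrolases and the membrane genes reach beyond 50% lower, against 12.2% of all genes.

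The members lie on 19 chromosomes; the sources used here do not name the genome build of these coordinates. ATP6AP1, ATP6AP2, LAMP2 and TFE3 are on the X chromosome. CTSK (ENSBTAG00000021035) is placed on chromosome 3 at 19953196 to 19966177 and CTSS (ENSBTAG00000017135) at 19981414 to 20004455. CTSZ (ENSBTAG00000018784) is on chromosome 13 at 57379868 to 57390706, TFEB (ENSBTAG00000012384) on chromosome 23 at 15499140 to 15531213, and ATP6V1A (ENSBTAG00000002703) on chromosome 1 at 58434606 to 58495180. In the authors' deposited tables of coculture over monoculture, 31 of the 33 members had the call given here in proliferation, 32 at 24 h and 33 at 72 h.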

How the data were processed

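Deposited files were a table of counts, whole numbers per gene and library, and, per the file headers, 3 tables with the log2 fold change and its standard error, a Wald statistic (score), a mean of scaled counts (signal) and p-values of their own model. The submitters' processing notes name FastQC, RSEM, STAR and DESeq2 but no version or role, so the authors' counts may be rounded RSEM estimates. The library kit is named without a statement on strand, so overlapping genes cannot be told apart. The 24 columns named in the labels were used and 12 other library columns were not. No gene of the table has under 6 counts in a library used, so genes silent in any library are not analysed here. The promoter motif search planned was not run, for want of sequences.

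Counts were scaled with TMM factors and fitted in edgeR 4.0.16 (R 4.3.3) with 1 mean per group over all 24 libraries (18 residual degrees of freedom). The filterByExpr rule removed 0 genes. Comparisons used the quasi-likelihood F test with Benjamini-Hochberg adjustment over 11937 genes. Standard errors (SE) were taken as log2 fold change, without sign, divided by the root of F. The biological coefficient of variation was 6.86%. CPM are TMM-scaled counts relative to library size, not corrected for gene length, so levels are not compared between genes. Fits were tested on simulated data.

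Alternatives were DESeq2 1.42.0, other scaling and filters, lane as a covariate, lane 6 alone, a replicate block, the compared groups only, and leaving out libraries. Values in every library are given for 15 members chosen whatever they did and for the 3 largest rises and falls per coculture comparison among called members with at least 5 CPM and no overlap between groups. The members and lists were chosen with earlier results of these data known.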

Additional observations from a re-analysis of the deposited data

Results flagged for a closer look

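For 33 of 54 tests over 18 members and 3 pairs of times, edgeR found that the coculture difference itself had changed (adjusted p under 0.05). Of all genes, 26.2% moved down and 24.3% up from proliferation to 24 h, and 31% and 31.3% from proliferation to 72 h. Between 24 h and 72 h the shares were 11.7% and 12%. ATP6V0B, ATP6V1E1 and CTSC were among the 18 only because their coculture differences in these same libraries were among the largest. From proliferation to 24 h the log2 difference moved down for CTSZ (-0.65), ATP6V0B (-0.58), ATP6AP1 (-0.47), CTSD (-0.45), TFE3 (-0.40), LAMP1 (-0.38), ATP6V0A1 (-0.34), ATP6V0D1 (-0.31), ATP6V1E1 (-0.28) and CTSB (-0.28). It moved up for ATP6V1A (0.59), CTSS (0.28) and LAMP2 (0.15) over the same time. From proliferation to 72 h it moved down for TFEB (-0.92), CTSZ (-0.78), ATP6V0B (-0.70), ATP6AP1 (-0.62), CTSD (-0.58), ATP6V1E1 (-0.40), CTSB (-0.39), ATP6V0D1 (-0.35), ATP6V0A1 (-0.33), LAMP1 (-0.29), TFE3 (-0.22) and ATP6V1H (-0.16), and up for ATP6V1A (0.69), CTSC (0.47), CTSS (0.46) and LAMP2 (0.18). Between 24 h and 72 h it moved down for TFEB (-0.57) and CTSK (-0.21), and up for CTSC (0.41) and TFE3 (0.19). The weakest of these calls were those of ATP6V1H from proliferation to 72 h, which ended in 10 of 25 alternative analyses, CTSS and LAMP2 from proliferation to 24 h (6 and 2 of 26), and CTSK from 24 h to 72 h (5 of 25). With library sizes alone the calls of TFE3, LAMP1, ATP6V0D1 and ATP6V0A1 from proliferation to 72 h also ended. The pairs of times share libraries, and lane 7 holds part of the coculture libraries at 24 h and all of them at 72 h.

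In 3 of 108 groups of 4 libraries a single value lay far from the others, with a gap to the next that was large for the group's range (Dixon's test at the 95% level); chance gives about 1 in 20. These were LAMP2 in monoculture 24 h replicate 3 (173 CPM, the next at 184), ATP6V0D1 in monoculture 24 h replicate 1 (124 CPM, the next at 132) and ATP6V1H in coculture 72 h replicate 3 (49.1 CPM, the next at 52.3).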

How the results depend on the processing

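Counts of members lower in coculture held within 1.5 times at 24 h (16 to 20) and in proliferation (12 to 15) in all alternatives, and at 72 h in all but scaling by library sizes alone (15 lower and 4 higher, against 23 and 2). With library sizes alone, 3 members were higher in proliferation, 11 moved up and 10 down from proliferation to 72 h, 9 up and 2 down from 24 h to 72 h, and in monoculture 6 rose in the first 24 h and 6 fell in the next step. With lane as a covariate 1 member was higher at 72 h and 2 moved up from 24 h to 72 h. Within lane 6, 5 were higher in proliferation. Without the 4 libraries rich in ribosomal RNA, 13 rose in coculture from 24 h to 72 h. The reversal was ATP6V0D1 at 72 h, at 0.022 with library sizes alone. The cause of these moves was not tested.

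Leaving out single libraries gave 5 to 8 members higher in proliferation (5 without coculture replicate 2), 2 to 6 moving up from proliferation to 24 h (2 without monoculture 24 h replicate 3, 3 without coculture proliferation replicate 1), and 2 to 4 up and 3 to 7 down from 24 h to 72 h. The 2 moving up came without monoculture 24 h replicate 2, monoculture 72 h replicate 2, coculture 24 h replicate 4 or coculture 72 h replicates 3 or 4, and the 3 moving down without coculture 24 h replicate 1.

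The labels number the libraries 1 to 4 in each group but do not tie the numbers to a shared culture. Deviations from the group means of same-numbered libraries correlated at a median of -0.018 over 60 pairs, with 4 pairs over 0.1, so the numbers were not taken to pair the samples; 2 of 24 libraries correlated best with their own number. The replicate block gave 8 members higher and 13 lower in proliferation, 0 and 18 at 24 h, and 2 and 23 at 72 h.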
